A study of Mus musculus with 21 samples.

Results

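Topoisomerases and the enzymes that clear stalled topoisomerases from DNA were followed in mouse embryonic stem cells after inhibition of RNA polymerase I. The members were taken by gene symbol from the deposited expression table: Top1, Top1mt, Top2a, Top2b, Top3a and Top3b, which encode the topoisomerases, and Tdp1 and Tdp2, which encode the tyrosyl-DNA phosphodiesterases. All 8 were found among the 20900 genes of the table, and all 8 were among the 14666 genes tested. The cells were E14, a line of 129 strain embryonic stem cells kept in serum with leukaemia inhibitory factor, and the RNA was polyadenylated. Untreated cells (0 h control) were compared with cells given 1 µM BMH-21 for 2, 4 or 8 h and with cells given 1 µM CX-5461 for 2, 4 or 8 h. Each of these 7 groups had 3 libraries, 21 in all. Both inhibitors were compared with the same untreated libraries, and the groups carried no label for time in fresh medium without inhibitor. All libraries came from this 1 line. The labels do not say whether replicates were separate cultures, so p-values measure only the spread between these samples, which may be technical.

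Topoisomerases cut DNA, let strands pass and reseal the cut, and during the cut the enzyme is joined to DNA through a tyrosine. Type I enzymes cut a single strand and type II enzymes cut both. Drugs that hold the enzyme on cut DNA, called poisons, leave protein-linked breaks, and Tdp1 and Tdp2 hydrolyse the bond between the tyrosine and DNA. BMH-21 and CX-5461 are small molecules that block transcription of ribosomal DNA, and CX-5461 has been reported to trap topoisomerase II. The comparisons asked how the transcripts of these enzymes changed after each inhibitor. Amounts of protein, enzyme activity and DNA breaks were not measured here.

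Whole reads recovered from the table numbered 46604397 to 62812641 per library, and the 8 members had from 627 reads (Top1mt, untreated) to 63630 reads (Top2a, untreated) in a library. The deposited log2 values carried a library scaling that shifted all genes together. The shift of the library medians against control was -0.08, -0.15 and -0.21 at 2, 4 and 8 h of BMH-21, and for CX-5461 it was -0.15, -0.16 and 0.22. Levels are therefore given as the log2 value minus the library's median over the genes tested, so that 0 is the level of the median gene. Differences are between groups on this centred log2 scale, and all p-values are two-sided limma p-values with Benjamini-Hochberg adjustment over 14666 genes, with a threshold of 0.05. A call is said to hold under all 4 scalings where the values as deposited, centred values, median-ratio factors and quantile normalization called it in the same direction.

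After 8 h of BMH-21 all 8 members had changed: Top1, Top1mt, Top2b and Top3b were higher than in untreated cells, and Top2a, Top3a, Tdp1 and Tdp2 were lower, of which Top1 and Top3b were not called as deposited (0.01 and 0.05) nor Top3a with median-ratio factors (-0.09). After 8 h of CX-5461 the directions were the same for the 7 members called, and Top1 did not pass the test. As deposited the falls of Top2a (-0.22), Top3a (-0.09) and Tdp2 (-0.21) under CX-5461 were not called, nor was Tdp1 (0.01). The number of members called against control was 4, 6 and 8 at 2, 4 and 8 h of BMH-21, where 36.0%, 73.6% and 84.6% of all genes tested were called. It was 5, 7 and 7 under CX-5461, where 33.6%, 74.2% and 74.0% of all genes were called. Members whose 3 libraries did not overlap the untreated ones numbered 5, 7 and 8 under BMH-21 and 7 each time under CX-5461, against 47.8%, 75.1% and 83.2%, and 46.6%, 77.3% and 78.0%, of all genes. At 4 and 8 h most genes had changed, so the counts of members are close to the background, and the direction and size of each member's change carry the description. The median difference of the 8 members was 0.00, -0.01 and 0.00 under BMH-21 and -0.06, -0.22 and -0.08 under CX-5461, against 0.00, -0.06 and -0.19 and -0.03, -0.12 and -0.11 over all genes. The calls that held under all 4 scalings numbered 1, 4 and 5 under BMH-21 and 2, 5 and 3 under CX-5461.

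**Figure D1:**
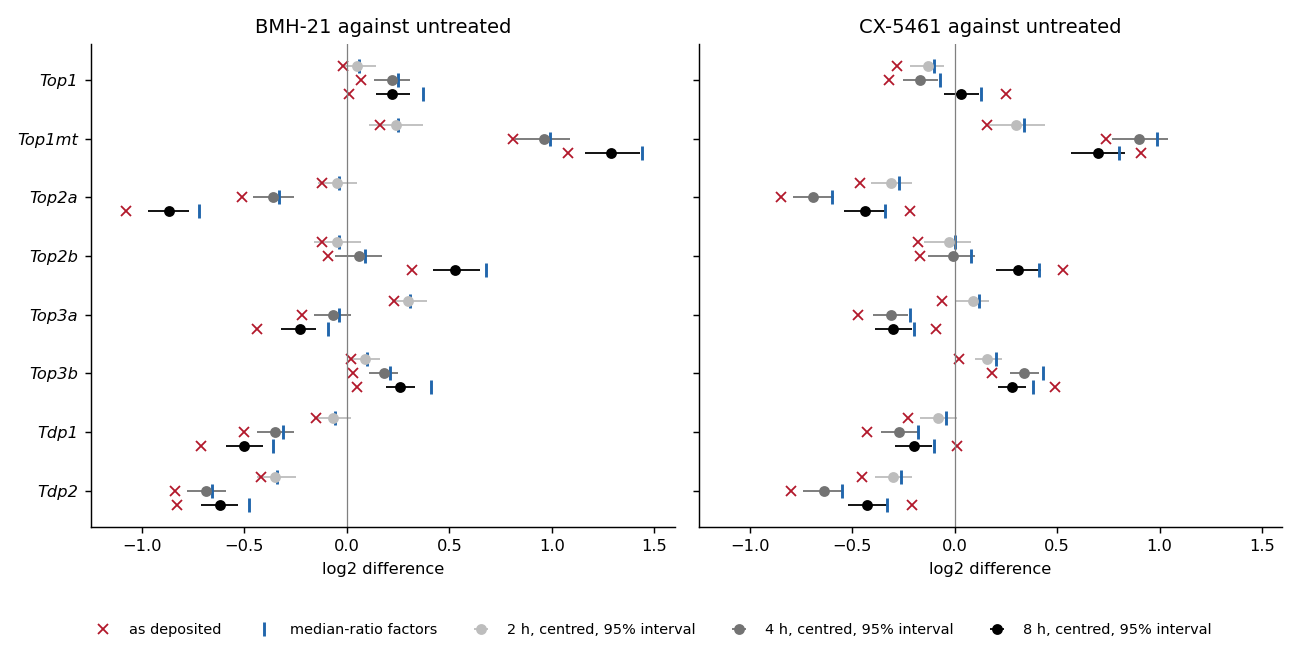
Log2 difference from untreated cells for each member (rows) after 2, 4 and 8 h (light to dark) of each inhibitor; circles and bars are centred differences with 95% limma intervals (3 libraries per group), crosses the differences as deposited and ticks those with median-ratio factors. Top1mt reached 1.29 at 8 h of BMH-21 while Top2a reached -0.87. For every member except Top2b the cross and the circle differ enough to change a call at some time.

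Untreated cells expressed the type II enzyme Top2a far above the rest of the family. The deposited log2 level per kilobase of all annotated exons was 7.17 ± 0.15 (SD, n = 3) for Top2a, followed by Tdp2 at 4.49 ± 0.14, Top1 at 4.47 ± 0.10, Top3a at 3.92 ± 0.12 and Top3b at 3.85 ± 0.11. The lower members were Tdp1 at 2.97 ± 0.10, Top1mt at 2.94 ± 0.21 and Top2b at 1.79 ± 0.09 (SD, n = 3 each). The neighbours Tdp2 and Top1, Top3a and Top3b, and Tdp1 and Top1mt differed by less than their spread. With the length of the principal transcript instead, Top2a (7.96) stayed highest and Top2b (2.29) lowest, while Top1 (5.90) and Top3b (5.30) moved above Tdp2 (5.24). The order in the middle thus depends on the length used.

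The paralogs Top2a and Top2b encode the nuclear type II enzymes. TOP2A is the form of dividing cells, needed to separate and condense chromosomes, and TOP2B is also present in cells that do not divide and acts at transcribed genes. In the mm10 assembly (GENCODE M21 annotation) Top2a lies at chr11:98992943-99024189 on the minus strand and Top2b at chr14:16365179-16435462 on the plus strand. The promoters of this pair are shown because the transcripts moved in opposite directions at 8 h. Each run is the 250 bases before the RefSeq start (GRCm38.p6), 5′ to 3′ on the gene's strand, chr11:99024190-99024439 for Top2a and chr14:16364956-16365205 for Top2b. Capitals mark the letters CCAAT (or ATTGG on the other strand), TTTGAA (or TTCAAA), a core of the cell cycle homology region known as CHR, and GGGCGG (or CCGCCC), known as the GC box; no marked match overlaps another.
Top2a: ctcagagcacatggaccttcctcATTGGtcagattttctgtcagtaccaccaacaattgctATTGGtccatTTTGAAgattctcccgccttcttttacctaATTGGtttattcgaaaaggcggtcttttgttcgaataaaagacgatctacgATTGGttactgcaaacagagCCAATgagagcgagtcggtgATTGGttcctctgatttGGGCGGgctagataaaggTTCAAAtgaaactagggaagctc
Top2b: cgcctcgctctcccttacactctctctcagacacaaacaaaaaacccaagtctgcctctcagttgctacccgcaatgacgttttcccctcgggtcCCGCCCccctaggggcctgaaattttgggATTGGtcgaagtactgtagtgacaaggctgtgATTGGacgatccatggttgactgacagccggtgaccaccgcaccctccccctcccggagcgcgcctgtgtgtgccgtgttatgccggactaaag
The Top2a window held 6 CCAAT matches, 2 TTTGAA matches and 1 GC box. The Top2b window held 2 CCAAT matches, no TTTGAA and 1 GC box. Of 32851 RefSeq promoter windows of this length, 33.8% held CCAAT, 16.0% held TTTGAA and 32.7% held GGGCGG on either strand, and 19 windows (0.0578%) held at least 6 CCAAT matches. Among the 14009 windows of genes tested these shares were 35.3%, 10.5% and 56.0%, and 13 windows held at least 6 CCAAT matches. At least 2 CCAAT matches were held by 12.2% of them, and at least 2 TTTGAA matches by 0.849%. The limits of 6 and 2 were set by the counts in this pair, so these shares are no test. Whether the motifs bear on the changes of the transcripts was not tested. A promoter window was found in RefSeq for 5 of the 8 members. That of Top1 held 3 GC boxes and no other match, and that of Top3b held 1 CCAAT match and no other. The Tdp1 window held 1 TTTGAA match, 1 GC box and no CCAAT. The bases just after the Tdp1 window were not found in a GENCODE transcript of the gene. A match of letters is a description of the sequence and not a measured site.

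**Figure D2:**
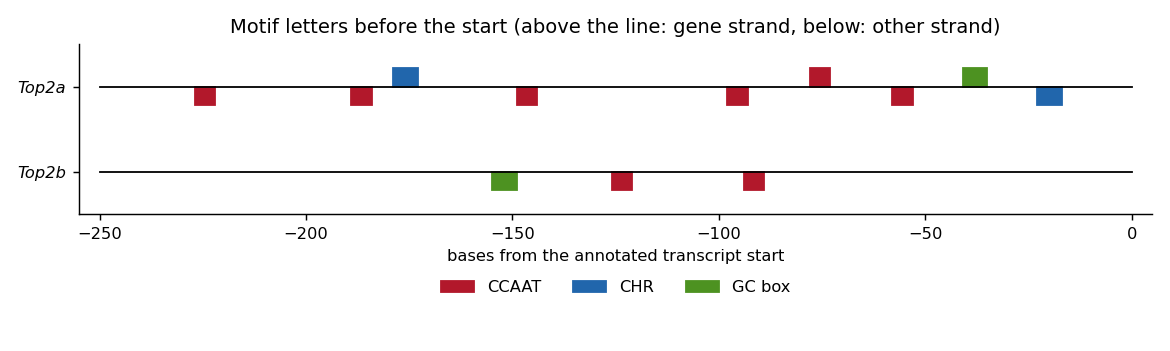
Positions of CCAAT (red), TTTGAA (CHR, blue) and GGGCGG (GC box, green) matches in the 250 bases before the annotated starts of Top2a and Top2b, above the line on the gene's strand and below it on the other. The 6 CCAAT matches of Top2a are spread along the window, and Top2b has 2.

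Top2a fell with both inhibitors. It was lower under CX-5461 than under BMH-21 at 2 and 4 h and lower under BMH-21 at 8 h. Its centred log2 level was 5.89, 5.95 and 5.84 in the 3 untreated libraries. With BMH-21 it was 5.81, 5.87 and 5.87 at 2 h, 5.57, 5.59 and 5.44 at 4 h and 5.13, 4.93 and 5.02 at 8 h. With CX-5461 it was 5.55, 5.58 and 5.62 at 2 h, 5.17, 5.23 and 5.21 at 4 h and 5.46, 5.50 and 5.41 at 8 h. The BMH-21 libraries overlapped the untreated ones at 2 h and lay below all of them at 4 and 8 h, and the CX-5461 libraries lay below all untreated libraries at every time. The difference from control at 8 h of BMH-21 was -0.87 (SE 0.05, adjusted limma p 3.2e-14), a level 1.83-fold lower, and -0.43 after quantile normalization. It was -0.36 at 4 h (adjusted limma p 3.7e-07) and -0.05 at 2 h (adjusted limma p 0.50). The CX-5461 differences were -0.31, -0.69 and -0.44 at 2, 4 and 8 h (SE 0.05, adjusted limma p 1.6e-05, 5.9e-12 and 2.0e-08). All of these calls held under the 4 scalings except that of CX-5461 at 8 h, which was -0.22 as deposited (adjusted limma p 0.064) and -0.10 after quantile normalization (adjusted limma p 0.15). Between 4 and 8 h Top2a went up under CX-5461, by 0.25 (adjusted limma p 9.9e-05, and 0.62 as deposited, called under all 4 scalings), and down under BMH-21, by -0.51 (adjusted limma p 2.0e-09), a fall that was -0.09 after quantile normalization (adjusted limma p 0.17). In bulk RNA a smaller share of cells that express a gene and less of its RNA per cell cannot be told apart.

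Top2b behaved otherwise: it showed no call at 2 or 4 h with either inhibitor and rose at 8 h with both. The untreated libraries had centred log2 levels of 1.20, 1.22 and 1.21. Those of BMH-21 had 1.06, 1.19 and 1.24 at 2 h, 1.34, 1.25 and 1.21 at 4 h and 1.80, 1.65 and 1.78 at 8 h. Those of CX-5461 had 1.16, 1.17 and 1.20 at 2 h, 1.08, 1.23 and 1.28 at 4 h and 1.56, 1.56 and 1.46 at 8 h. All 8 h libraries of both inhibitors lay above every untreated and every 4 h library. The 8 h difference was 0.53 under BMH-21 (SE 0.05, adjusted limma p 2.7e-09), 1.45-fold, and 0.31 under CX-5461 (SE 0.05, adjusted limma p 1.8e-05), 1.24-fold, and both were called under all 4 scalings. As deposited the sizes changed places, with 0.32 under BMH-21 and 0.53 under CX-5461. The 2 and 4 h differences lay between -0.05 and 0.06, with 95% intervals inside -0.16 to 0.17. Top2b shares 1793 exon bases with Rarb, which is annotated on the opposite strand. The libraries were made with a directional kit, and whether the counting used strand is not given in the sources used here. Rarb had 17 to 26 reads per untreated library, 102 to 142 at 8 h of BMH-21 and 26 to 37 at 8 h of CX-5461. Top2b had 2221 to 2440, 4147 to 4614 and 3000 to 3807 reads in the same libraries.

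The ratio of Top2a to Top2b within a library is not changed by a factor common to all its genes. Quantile normalization is not such a factor and can change the ratio. After it, Top2a and Top2b differed from control by -0.43 and 0.69 at 8 h of BMH-21. At 8 h of CX-5461 these values were -0.10 and 0.46. The ratios below are from the values as deposited. On the log2 scale it was 4.69, 4.73 and 4.62 in the untreated libraries. It was 4.75, 4.68 and 4.62 at 2 h of BMH-21, 4.23, 4.34 and 4.23 after 4 h and 3.33, 3.27 and 3.24 after 8 h. With CX-5461 it was 4.39, 4.41 and 4.42, then 4.09, 4.00 and 3.94, then 3.90, 3.94 and 3.96. The mean minus that of control was -1.40 at 8 h of BMH-21 and -0.75 at 8 h of CX-5461, and apart from the 2 h BMH-21 libraries no treated library overlapped the untreated ones. The ratio stayed near its 4 h value at 8 h of CX-5461, when Top2a and Top2b had both gone up since 4 h, and went on falling under BMH-21.

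**Figure D3:**
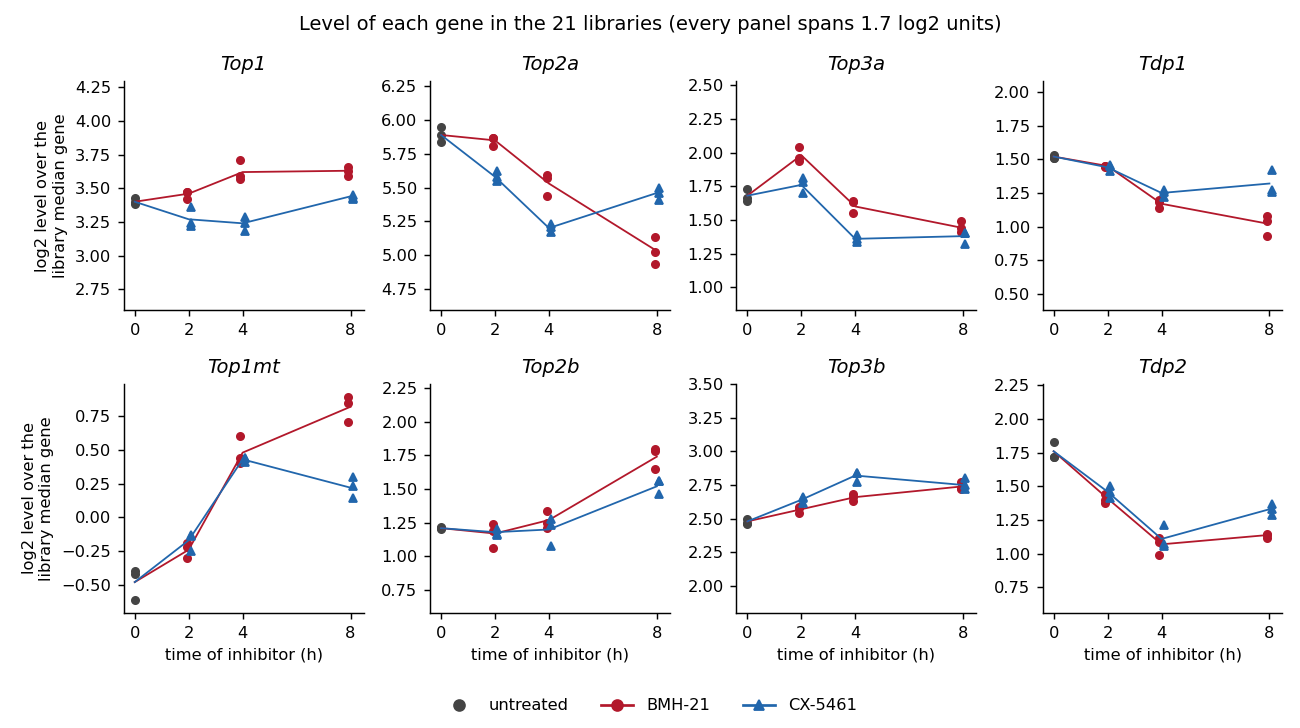
Centred log2 level (vertical axis) of each member in every library against time of inhibitor in hours; points are single libraries, lines join group means, and all panels span the same range of 1.7 log2 units. At 8 h of both inhibitors Top2a, Tdp1 and Tdp2 lie below their untreated level and Top1mt and Top3b above it. From 4 to 8 h of CX-5461 the mean of Top2a goes from 5.20 to 5.46, Tdp2 from 1.11 to 1.33 and Top1mt from 0.43 to 0.22. Top2b leaves its untreated level at 8 h.

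Top1, the nuclear type IB enzyme that relaxes supercoils made by transcription and replication, was higher under BMH-21 than under CX-5461 at each time on the centred scale. It lies at chr2:160645888-160722764 on the plus strand. The untreated libraries had centred log2 levels of 3.38, 3.43 and 3.40. BMH-21 libraries had 3.59, 3.71 and 3.57 at 4 h and 3.59, 3.63 and 3.66 at 8 h, all above the untreated range. CX-5461 libraries had 3.36, 3.22 and 3.24 at 2 h and 3.24, 3.29 and 3.18 at 4 h, all below it, and 3.45, 3.43 and 3.42 at 8 h. The BMH-21 difference from control was 0.05, 0.22 and 0.22 at 2, 4 and 8 h, called at 4 and 8 h (adjusted limma p 4.8e-05 and 3.1e-05). The values as deposited gave -0.02, 0.07 and 0.01 with no call, while median-ratio factors gave 0.06, 0.25 and 0.37 and quantile normalization 0.04, 0.31 and 0.64. The CX-5461 difference was -0.13, -0.17 and 0.03 (adjusted limma p 0.017, 0.0010 and 0.48). The values as deposited were -0.28, -0.32 and 0.25, all called. The 2 h call was lost with median-ratio factors (-0.10, adjusted limma p 0.082) and quantile normalization (-0.09, adjusted limma p 0.080), without untreated replicate 2 (-0.12) and without CX-5461 2 h replicate 2 (-0.10) or replicate 3 (-0.11), and that at 4 h came to -0.07 by median-ratio factors (adjusted limma p 0.11) and 0.04 after quantile normalization. At 8 h the other 3 scalings called Top1 higher under CX-5461, from 0.13 with median-ratio factors to 0.38 after quantile normalization. The direction of Top1 against control thus changed with the scaling, whereas BMH-21 exceeded CX-5461 at 4 h by 0.39 (SE 0.04, adjusted limma p 1.2e-07) under all 4 scalings.

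Top1mt, the mitochondrial member of the type IB pair, rose more than any other member at 4 and 8 h of both inhibitors. It lies at chr15:75657035-75678800 on the minus strand and had the fewest reads of the 8. Its centred log2 level was -0.42, -0.40 and -0.61 in untreated libraries. With BMH-21 it was -0.30, -0.22 and -0.19 at 2 h, 0.40, 0.44 and 0.60 at 4 h and 0.71, 0.85 and 0.89 at 8 h. With CX-5461 it was -0.13, -0.25 and -0.14 at 2 h, 0.44, 0.41 and 0.44 at 4 h and 0.23, 0.30 and 0.14 at 8 h. Each treated library lay above every untreated one. The differences from control were 0.24, 0.96 and 1.29 under BMH-21 (SE 0.06, adjusted limma p 0.0051, 2.8e-12 and 4.6e-15), the last a 2.45-fold rise. They were 0.30, 0.90 and 0.70 under CX-5461 (SE 0.06, adjusted limma p 0.00067, 1.0e-11 and 1.2e-09). The 4 and 8 h calls held under all 4 scalings, and the 2 h values were 0.16 for both inhibitors as deposited, without a call. From 4 to 8 h Top1mt went up by 0.34 under BMH-21 (adjusted limma p 6.9e-05, under all 4 scalings) and down by -0.20 under CX-5461 (adjusted limma p 0.0091). That fall was 0.17 as deposited and lost its call without CX-5461 8 h replicate 3 (-0.16, adjusted limma p 0.058). The log2 ratio of Top1 to Top1mt, which a factor common to a library leaves unchanged, averaged 3.88 ± 0.12 in untreated libraries (SD, n = 3). It was 2.81 ± 0.07 at 8 h of BMH-21, 2.81 ± 0.06 at 4 h of CX-5461 and 3.21 ± 0.07 at 8 h of CX-5461 (SD, n = 3 each). All 18 treated libraries lay below the untreated ones. After quantile normalization, which can change this ratio, Top1 and Top1mt differed from control by 0.64 and 1.33 at 8 h of BMH-21. At 8 h of CX-5461 these values were 0.38 and 0.69.

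The type IA pair also moved apart. TOP3A works with the BLM helicase and the RMI proteins to resolve joined DNA molecules, and TOP3B, which binds TDRD3, can act on RNA as well as DNA. Top3a lies at chr11:60740058-60777365 on the minus strand and Top3b at chr16:16870736-16892990 on the plus strand. The centred log2 level of Top3a was 1.64, 1.73 and 1.66 in untreated libraries and 1.94, 2.04 and 1.96 at 2 h of BMH-21, with no overlap. This 2 h rise of 0.30 (SE 0.04, adjusted limma p 3.3e-06) was 0.23 as deposited (adjusted limma p 0.14). At 4 h Top3a was -0.07 against control under BMH-21 (adjusted limma p 0.13) and -0.31 under CX-5461 (adjusted limma p 4.8e-07), and the CX-5461 fall was called under all 4 scalings, from -0.47 as deposited to -0.20 after quantile normalization. Its 8 h differences were -0.23 under BMH-21 and -0.30 under CX-5461 (adjusted limma p 2.0e-05 and 8.7e-07). The first was -0.44 as deposited and called, and it was -0.09 with median-ratio factors and -0.07 after quantile normalization, neither called. The second was -0.09 as deposited without a call, and -0.14 after quantile normalization.

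Top3b rose by small steps. Its centred log2 level was 2.46, 2.50 and 2.47 in untreated libraries, 2.77, 2.73 and 2.72 at 8 h of BMH-21 and 2.72, 2.80 and 2.75 at 8 h of CX-5461, with no overlap. The difference from control was 0.09, 0.18 and 0.26 under BMH-21 and 0.16, 0.34 and 0.28 under CX-5461, with adjusted limma p between 2.5e-09 and 0.032. The 2 h BMH-21 call was lost without untreated replicate 1 (0.08) or 3 (0.09) and without BMH-21 replicate 2 (0.08) or 3 (0.09). Only the 8 h CX-5461 call held under all 4 scalings, since the other 5 values as deposited lay between 0.02 and 0.18 without a call. At 8 h quantile normalization gave 0.57 for each inhibitor, and the value as deposited was 0.49 under CX-5461. Top3b shares 108 exon bases with Vpreb1 on the opposite strand, which had at most 168 reads in a library. The ratio of Top3a to Top3b was -0.82, -0.77 and -0.81 in untreated libraries on the log2 scale, rose to -0.60, -0.55 and -0.62 at 2 h of BMH-21, and was -1.28, -1.30 and -1.31 at 8 h of BMH-21 and -1.31, -1.40 and -1.42 at 8 h of CX-5461. After 4 h of CX-5461 it was -1.48, -1.38 and -1.50. These groups did not overlap the untreated one, whereas the 2 h CX-5461 libraries did.

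**Figure D4:**
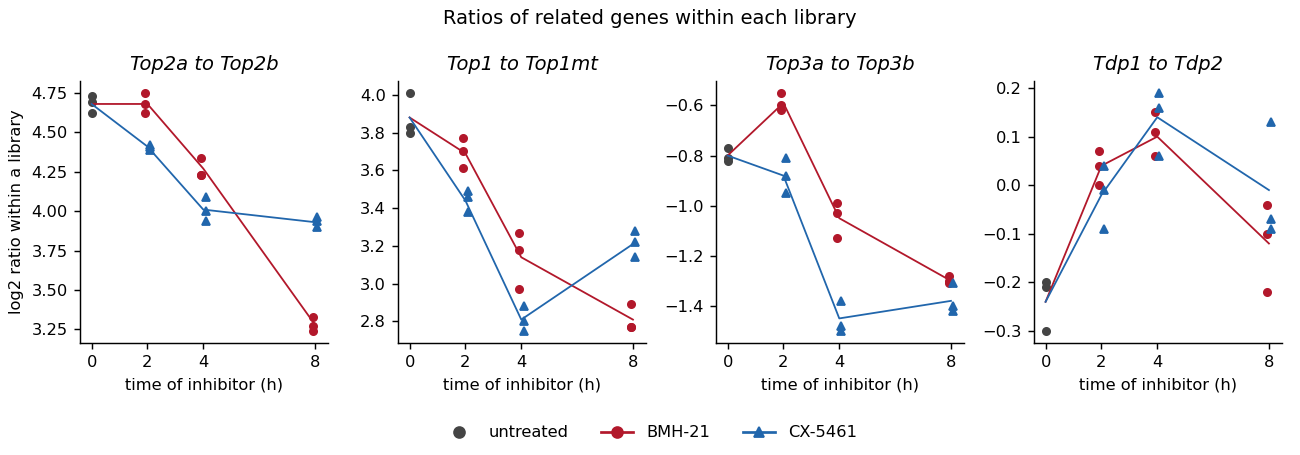
Log2 ratio of related genes within each library (vertical axis, a separate scale per panel) against time of inhibitor in hours, with single libraries as points and group means joined by lines. The ratio of Top2a to Top2b ends at 3.28 under BMH-21 and 3.93 under CX-5461 from 4.68, and that of Tdp1 to Tdp2 is highest at 4 h.

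The phosphodiesterase genes fell with both inhibitors. TDP1 acts mainly on bonds left by topoisomerase I and TDP2 on those left by topoisomerase II. Tdp1 lies at chr12:99884517-99955219 and Tdp2 at chr13:24831679-24842153, both on the plus strand. The centred log2 level of Tdp2 was 1.83, 1.72 and 1.72 in untreated libraries. With BMH-21 it was 1.44, 1.38 and 1.40 at 2 h, 1.09, 0.99 and 1.12 at 4 h and 1.12, 1.14 and 1.15 at 8 h. With CX-5461 it was 1.46, 1.41 and 1.50 at 2 h, 1.06, 1.21 and 1.07 at 4 h and 1.37, 1.29 and 1.33 at 8 h. Every treated library lay below every untreated one. The differences were -0.35, -0.69 and -0.62 under BMH-21 (SE 0.05, adjusted limma p 1.7e-06, 2.1e-12 and 8.2e-12) and -0.30, -0.64 and -0.43 under CX-5461 (SE 0.05, adjusted limma p 1.3e-05, 9.1e-12 and 1.4e-08). Tdp2 was the only member called at 2 h of both inhibitors under all 4 scalings. Its other calls held too, except that at 8 h of CX-5461, which was -0.21 as deposited (adjusted limma p 0.11) and -0.27 after quantile normalization. Between 4 and 8 h Tdp2 went up under CX-5461 by 0.22 (adjusted limma p 0.00030, and 0.59 as deposited), a call made under all 4 scalings. Under BMH-21 that difference was 0.07 and not called (adjusted limma p 0.19).

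Tdp1 changed later and less. Its centred log2 level was 1.53, 1.51 and 1.51 in untreated libraries and 1.44, 1.45 and 1.45 at 2 h of BMH-21, below but not called (-0.07, adjusted limma p 0.23). It was 1.20, 1.14 and 1.18 at 4 h and 1.08, 1.04 and 0.93 at 8 h of BMH-21, differences of -0.35 and -0.50 (SE 0.04, adjusted limma p 1.6e-07 and 1.7e-10) that held under all 4 scalings. With CX-5461 the differences were -0.08, -0.27 and -0.20 (adjusted limma p 0.17, 6.6e-06 and 0.00024). The 4 h call was made under all 4 scalings, from -0.43 as deposited to -0.16 after quantile normalization. At 8 h median-ratio factors gave -0.10, and the difference was 0.01 as deposited and -0.06 after quantile normalization, the last pair not called. The log2 ratio of Tdp1 to Tdp2 was -0.30, -0.21 and -0.20 in untreated libraries, 0.11, 0.15 and 0.06 at 4 h of BMH-21 and 0.16, 0.06 and 0.19 at 4 h of CX-5461. It overlapped the untreated range at 8 h of BMH-21 and lay above it in the other 5 groups.

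Between 4 and 8 h, 6 of the 8 members changed under BMH-21 and 5 under CX-5461, where 70.5% and 57.8% of all genes did. The 4 calls under CX-5461 that held under all 4 scalings were rises, of Top1 (0.20), Top2a (0.25), Top2b (0.33) and Tdp2 (0.22), and as deposited these were 0.57, 0.62, 0.70 and 0.59. With BMH-21 those of Top1mt (0.34) and Top2b (0.48) held. The Top3b rise under BMH-21 (0.08, adjusted limma p 0.027) lost its call without 4 h replicate 1 (0.07) or 2 (0.09) and without 8 h replicate 1 (0.07). The 4 to 8 h change differed between the inhibitors for 6 members, where it did for 60.2% of all genes, and for Top2a (-0.76, BMH-21 minus CX-5461, SE 0.07, adjusted limma p 2.0e-09) under all 4 scalings, from -1.20 as deposited to -0.50 after quantile normalization.

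The inhibitors were then set against each other at each time, which also tests whether their differences from the shared control differ. Of the 8 members, 3, 4 and 6 differed at 2, 4 and 8 h, where 15.4%, 45.8% and 71.7% of all genes did. At 2 h BMH-21 libraries were higher than CX-5461 libraries for Top1 (0.18), Top2a (0.26) and Top3a (0.22), with adjusted limma p of 0.0034, 0.00039 and 0.00076, and the Top2a call alone held under all 4 scalings. At 4 h BMH-21 was higher for Top1 (0.39), Top2a (0.33) and Top3a (0.24) and lower for Top3b (-0.16), and the Top1 and Top2a calls held under all 4 scalings, Top2a at 0.17 after quantile normalization. At 8 h the order of Top2a had turned: BMH-21 was lower by -0.43 (SE 0.05, adjusted limma p 2.9e-08), with every BMH-21 library below every CX-5461 library. Tdp1 (-0.30) and Tdp2 (-0.19) were also lower under BMH-21 at 8 h, and these 3 calls held under all 4 scalings, with larger values as deposited (-0.86, -0.73 and -0.62). Top1 (0.19), Top1mt (0.59) and Top2b (0.22) were higher under BMH-21 at 8 h, but as deposited they were -0.24, 0.17 and -0.21, so Top1 and Top2b turned. Top3a (0.07) and Top3b (-0.01) were not called at 8 h, but as deposited they were -0.36 and -0.44 and called. For Tdp2 the inhibitors were not told apart at 2 h (95% interval -0.14 to 0.05) or 4 h (-0.14 to 0.05), nor Top1mt at 2 h (-0.20 to 0.07) or 4 h (-0.08 to 0.19). The intervals for Top2b were -0.12 to 0.10 at 2 h and -0.04 to 0.18 at 4 h, and that of Top3b at 8 h was -0.08 to 0.05.

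Other genes of topoisomerase function and of the repair of its damage were taken as lists. Their genes were listed by function, with earlier results of these data known. Over all genes tested, 33.3% were called higher and 51.3% lower at 8 h of BMH-21, and 29.3% higher and 44.7% lower at 8 h of CX-5461. As deposited these shares were 24.5% and 56.9%, and 35.1% and 14.3%. Among 8 tested genes of topoisomerase partners, 1 was higher and 6 lower at 8 h of BMH-21 and 0 higher and 7 lower at 8 h of CX-5461. As deposited these were 0 higher and 6 lower, and 0 higher and 1 lower. Topors, which encodes a ligase that binds topoisomerase I, fell with both inhibitors (-0.80 and -0.51). Rmi1, of the TOP3A complex, was -0.65 under BMH-21 and -0.36 under CX-5461 (-0.15 as deposited, not called). Tdrd3, the partner of TOP3B, was -0.39 under BMH-21 and -0.49 under CX-5461 (as deposited -0.28, adjusted limma p 0.051). Zfp451, which encodes a partner of TDP2, was 0.15 under BMH-21 and -0.07 as deposited. The median of this list was -0.46 and -0.31 at 8 h of BMH-21 and CX-5461, against -0.19 and -0.11 over all genes.

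In the list for single-strand breaks and topoisomerase I adducts (11 tested), 4 were higher and 5 lower at 8 h of BMH-21 and 2 higher and 5 lower at 8 h of CX-5461. As deposited these were 1 and 7, and 2 and 0. Xrcc1, the scaffold of single-strand break repair, rose by 1.31 under BMH-21 and 0.64 under CX-5461 (adjusted limma p 2.8e-18 and 9.5e-12), and both calls were kept as deposited (1.10 and 0.85). Its ligase partner Lig3 fell under BMH-21 (-0.96, adjusted limma p 2.0e-14), as did the nuclease gene Eme1 (-0.49), while Polb was 0.19 (-0.02 as deposited). With CX-5461 Mus81 was higher (0.18), and Ercc1 (-0.45) and Parp1 (-0.44) were lower, values that were -0.24 and -0.23 as deposited without a call. Each was also called in the same direction at 8 h of BMH-21: Mus81 at 0.19 (-0.02 as deposited), Ercc1 at -0.30 and Parp1 at -0.47. Lig3 was -0.40 at 8 h of CX-5461 (-0.18 as deposited, not called), while Eme1 (0.00) and Polb (-0.03) were not called there.

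In the list for double-strand breaks and topoisomerase II adducts (12 tested), 1 was higher and 7 lower at 8 h of BMH-21 and 1 higher and 8 lower at 8 h of CX-5461, against 1 and 10, and 1 and 2, as deposited. The gene that rose was Nhej1, an end-joining factor, by 1.56 under BMH-21 and 0.67 under CX-5461 (adjusted limma p 4.8e-14 and 3.3e-07). Its end-joining partner Xrcc4 fell under BMH-21 (-1.14, adjusted limma p 2.0e-09) and less under CX-5461 (-0.38, and -0.16 as deposited without a call). Xrcc6, a subunit of the Ku end-binding complex, fell with both (-0.91 and -0.50). Nbn, of the MRE11 complex, was -0.51 under CX-5461 and -0.11 under BMH-21 (adjusted limma p 0.028), and as deposited -0.29 and -0.32. The list medians were -0.11 and -0.34, against -0.19 and -0.11 over all genes.

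Top2a transcript is known to peak in G2 and mitosis, so lists of G2 and mitosis genes and of replication genes are given beside it. Of 17 G2 and mitosis genes, 3, 11 and 15 were lower at 2, 4 and 8 h of BMH-21 and 12, 16 and 16 after CX-5461, and as deposited the 8 h counts were 16 and 10. Over all genes the shares called lower were 17.5%, 41.5% and 51.3%, and 17.8%, 45.7% and 44.7%, and those called higher 18.6%, 32.2% and 33.3%, and 15.8%, 28.5% and 29.3%. The list's median difference was 0.01, -0.18 and -0.42 under BMH-21 and -0.18, -0.50 and -0.48 under CX-5461, beside Top2a at -0.05, -0.36 and -0.87 and at -0.31, -0.69 and -0.44. Plk1, a mitotic kinase, fell most in this list at 8 h with both inhibitors (-1.12 and -0.87). Next came Cdk1 (-0.89) under BMH-21 and Ccnb1 (-0.75) under CX-5461. Both were also called lower with the other inhibitor, Cdk1 at -0.59 under CX-5461 and Ccnb1 at -0.53 under BMH-21. Hmmr was the 1 gene called higher at 8 h (0.24 under BMH-21, 0.03 as deposited). Between inhibitors at 4 h, 16 of the 17 were higher under BMH-21, as Top2a was. At 8 h, when Top2a was lower under BMH-21, 8 of them were higher under BMH-21 and 4 lower, and as deposited 13 were lower. Over all genes 27.4% were higher and 18.5% lower under BMH-21 at 4 h, and 31.1% higher and 40.6% lower at 8 h (67.2% lower as deposited). Of 13 replication genes, 12 were lower at 8 h of BMH-21 and 13 at 8 h of CX-5461 (12 and 9 as deposited). The largest falls were those of Pcna (-1.21) and Cdt1 (-0.94) under BMH-21 and of Mcm6 (-0.61) and Mcm4 (-0.58) under CX-5461. Mcm6 (-0.61) and Mcm4 (-0.87) were also lower under BMH-21, and Cdt1 (-0.51) under CX-5461. Rrm2 was 0.18 under BMH-21 (-0.03 as deposited) and -0.13 under CX-5461 (0.08 as deposited). The part of cell cycle position in the change of Top2a was not tested.

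**Figure D5:**
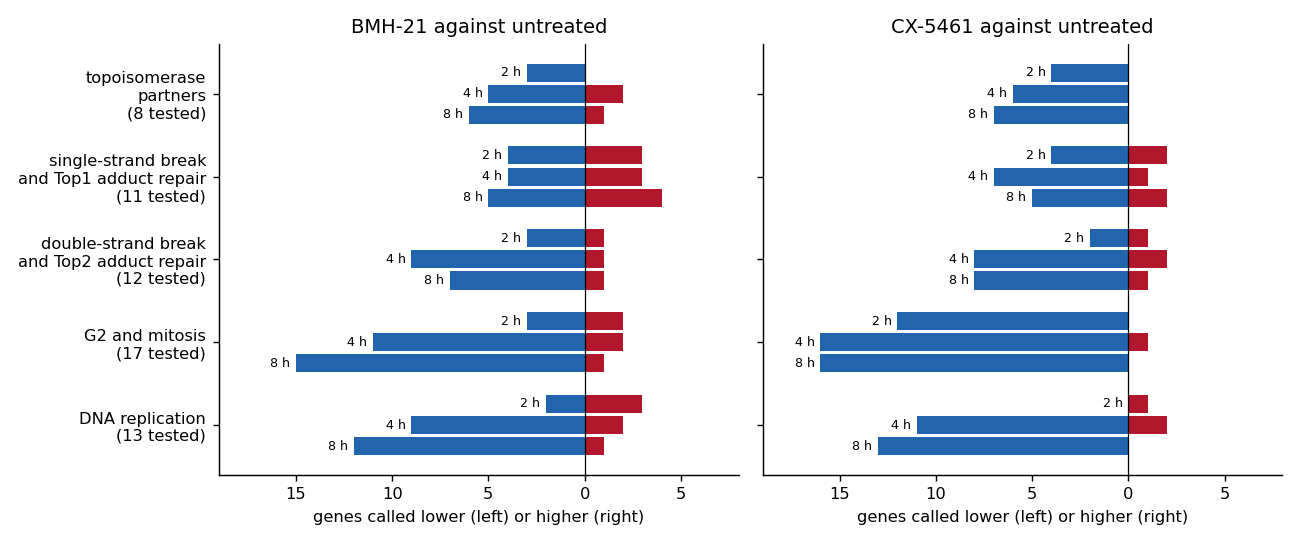
Number of genes called lower (bars to the left) or higher (to the right) than in untreated cells in each list after 2, 4 and 8 h of each inhibitor, on the centred scale; the number tested is given under each list name. At 8 h of BMH-21 and CX-5461, 15 and 16 of the 17 G2 and mitosis genes were lower (16 and 10 as deposited). Of the 13 replication genes, 12 and 13 were lower (12 and 9 as deposited). Over all genes the shares lower were 51.3% and 44.7% (56.9% and 14.3% as deposited). The list for single-strand breaks was the most mixed at 8 h.

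The labelled cell type was checked against markers. All 10 stem cell markers, Pou5f1, Nanog and Sox2 among them, were expressed in every group, with at least 5007 reads each per library. Their summed centred log2 level was 8.38 to 8.41 in untreated libraries, 7.30 to 7.52 at 8 h of BMH-21 and 7.91 to 7.93 at 8 h of CX-5461, and as deposited 12.72 to 12.91, 11.60 to 11.69 and 12.53 to 12.64. All 10 were called lower at 8 h of BMH-21. At 8 h of CX-5461 8 were lower (7 as deposited), Dppa5a was not called (-0.16) and Tdgf1 was higher (0.15, adjusted limma p 0.00075, and 0.37 as deposited). Of 7 fibroblast markers, 4 lay above a log2 value of 0 in untreated cells and were tested, and these moved in opposite directions. At 8 h of BMH-21 Col1a1 rose by 2.07 (adjusted limma p 3.4e-16) and Pdgfrb by 0.50 (0.29 as deposited, not called), Thy1 was -1.20 and lower, and Col1a2 was not called (0.28). At 8 h of CX-5461 Col1a1 (1.02) and Pdgfrb (0.79) rose, Thy1 was lower (-0.35, and -0.13 as deposited without a call) and Col1a2 was 0.39, called as deposited (0.60). Col3a1, Postn and Lum had at most 19, 14 and 2 reads in a library. The fibroblast sum was 0.68 to 0.74 in untreated libraries, 1.21 to 1.34 at 8 h of BMH-21 and 0.93 to 1.02 at 8 h of CX-5461 on the centred scale. The 5 primitive endoderm markers summed to -0.44 to -0.33, -0.73 to -0.66 and -0.59 to -0.46 in the same groups, with 2 higher and 3 lower at 8 h of BMH-21 and 1 higher and 2 lower at 8 h of CX-5461 (1 and 3, and 1 and 0, as deposited). The part of these marker changes in those of the members was not tested.

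For each member the 2 other genes with the most similar course over the 21 centred libraries were found by Pearson's r, as a description over libraries that share groups and scaling. For Top2a they were Tfrc, the transferrin receptor (r = 0.98), and Stag2, a cohesin subunit (0.97), and for Top2b Fbxo18 and Arhgef10 (0.96 each). Top1mt was followed most closely by Lmo1 and Gltp (0.99 each), although their 8 h differences under BMH-21 were 5.70 and 1.25. Tdp1 was nearest to Ctage5 and Rab3ip (0.98 each), and Tdp2 to Bora and Nup35 (0.97 each). The nearest genes to Top3a were Smek2 and Ppp1r10 (0.96 each) and to Top3b Efs and Ccdc64 (0.94 each). The weakest matches were those of Top1, to B4galt5 (0.89) and Cir1 (0.87). Among the members themselves r ran from -0.95 between Top1mt and Tdp1 to 0.85 between Top2a and Tdp1.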

How the data were processed

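Poly(A) RNA libraries of 21 samples in 7 groups of 3 were analysed. The authors deposited 1 table of log2 expression values per gene symbol, under a name that says voom; the submitters' processing notes list Trim Galore 0.5.0, TopHat2 2.1.1, R 4.0.5, DESeq2 1.30.1, edgeR 3.32.1, limma 3.46.0 and mm10, and the counting program, annotation and filters are not given in the sources used here. All 21 columns matched a sample by name. With each library's smallest value taken as 0 reads plus 0.5, the deposited log2 values returned whole read numbers, off by at most 1.7e-08. The deposited library factors (0.832 to 1.375) differed from median-ratio factors (0.941 to 1.107), and the variance prior on the deposited scale had 111.5 degrees of freedom, where centring gave 8.5 and the replicates themselves 14. Libraries were therefore centred on their median over the genes tested, those with a deposited log2 value above 0 in at least 3 libraries. A linear model with 1 mean per group was fitted in limma 3.58.1 (R 4.3.3) with eBayes and a mean-variance trend, giving 12 comparisons. Fold changes include the offset of 0.5 reads. Replicates of a group differed by more than sampling noise (chi-square per degree of freedom 2.58 to 26.0).

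The members and lists were chosen with earlier results of these data known. Genes other than markers are named by a rule. It takes the 8 members and the 2 nearest genes of each. In each list it takes the 2 largest called rises and falls at 8 h per inhibitor. The markers Pou5f1, Nanog, Sox2 and Lum and the overlapping genes were added after their values were seen, as were the promoter motifs. The other markers named, Dppa5a, Tdgf1, Col1a1, Col1a2, Pdgfrb, Thy1, Col3a1 and Postn, are also outside this rule. Coordinates come from GENCODE M21 and promoters from RefSeq. Alternatives were other scalings, filters, offset, variance models, fits of only the groups compared, a replicate block and leaving out each library. Figures were drawn with matplotlib 3.10.9.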

Additional observations from a re-analysis of the deposited data

Results flagged for a closer look

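For 6 of the 8 members the change from 4 to 8 h differed between the inhibitors, tested as an interaction in limma, where 60.2% of all genes tested did so. The value is the BMH-21 change minus the CX-5461 change on the centred log2 scale. It was -0.76 for Top2a (limma adjusted p 2.0e-09), which went down by -0.51 with BMH-21 and up by 0.25 with CX-5461, and this call alone held under all 4 scalings. Top1mt gave 0.54 (limma adjusted p 2.2e-05), from 0.34 with BMH-21 and -0.20 with CX-5461, and 0.10 as deposited. The others were Tdp1 at -0.22, Top1 at -0.20, Top3a at -0.17 and Top3b at 0.15, with limma adjusted p of 0.0032, 0.0062, 0.015 and 0.0096. As deposited Tdp1 was -0.66, Top1 -0.63 and Top3a -0.61, all called, and Tdp2 (-0.15, not called) was -0.58 and called. With median-ratio factors Tdp1 (-0.12), Top1 (-0.09) and Top3a (-0.07) were not called, and Top3b was -0.29 as deposited. The test for a library apart from its group needs 4 samples and was not run on groups of 3.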

How the results depend on the processing

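The library scaling changed more results than any other choice tried. On the values as deposited, the members called numbered 1 and 3 at 2 h of BMH-21 and CX-5461, 4 at 8 h of CX-5461, 1 and 2 between inhibitors at 2 and 4 h, and 3 between 4 and 8 h of BMH-21. Over all genes the calls fell from 5285 to 2891 at 2 h of BMH-21, and between inhibitors from 2261 to 585 at 2 h and from 6719 to 2617 at 4 h. They rose from 10513 to 11615 between inhibitors at 8 h, from 8824 to 10173 in the difference of the 4 to 8 h changes, and from 8477 to 9338 between 4 and 8 h of CX-5461, where those higher went from 3790 to 8626 and the members called from 5 to 7. Of 96 member differences, 15 changed sign as deposited. Against control these were Top1 (-0.02) at 2 h and Top2b (-0.09) at 4 h of BMH-21, and Top3a (-0.06) at 2 h and Tdp1 (0.01) at 8 h of CX-5461. Between inhibitors they were Top1mt (0.01), Top2b (0.06) and Tdp2 (0.02) at 2 h and Top1 (-0.24), Top2b (-0.21) and Top3a (-0.36) at 8 h. From 4 to 8 h they were Top1 (-0.06) with BMH-21, Top1mt (0.17) and Top3b (0.31) with CX-5461, and, in the difference of these changes, Top2b (-0.28) and Top3b (-0.29). Median-ratio factors, and equally voom weights, turned Top2b at 2 h (0.00) and 4 h (0.08) of CX-5461 and, between inhibitors, Tdp1 at 2 h (-0.02), Top1mt at 4 h (0.00) and Top3b at 8 h (0.03). Quantile normalization turned Top1 (0.04) and Top2b (0.08) at 4 h of CX-5461, Tdp1 at 2 h (-0.01) and Top3b at 8 h (0.00) between inhibitors, and Top3b from 4 to 8 h of CX-5461 (0.05). The cause was not tested.

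Leaving out each library in turn gave 3 to 4, 6 and 8 members called with BMH-21 and 4 to 5, 7 and 7 with CX-5461 at 2, 4 and 8 h. Between inhibitors it gave 3, 4 and 6, from 4 to 8 h 5 to 6 under BMH-21 and 4 to 6 under CX-5461, and 6 to 7 for the difference of these changes. Values near 0 and not called crossed it: Top2b at 2 h of BMH-21 (-0.08 to 0.01) and 4 h of CX-5461 (-0.05 to 0.04); between inhibitors Top2b (-0.05 to 0.04) and Tdp1 (-0.01 to 0.02) at 2 h, Top1mt (-0.01 to 0.09) and Tdp2 (-0.07 to 0.00) at 4 h and Top3b (-0.03 to 0.01) at 8 h; and from 4 to 8 h Top1 under BMH-21 (-0.02 to 0.05) and Top3a under CX-5461 (0.00 to 0.04). Of 624 member differences so computed, 11 lost and 7 gained a call. The replicate block changed no call of the 96 differences and none of the 12 counts, with 8 members called at 8 h of BMH-21 as without it. Same-numbered samples of different groups correlated between -0.25 and 0.11 in their deviations from the group means, so no shared effect of the replicate number was seen. These correlations cannot show whether same-numbered samples were grown or handled together. No filter, an offset of 5 reads and no variance trend left all 96 differences on their side of the threshold. A stricter filter (log2 above 2) gained 1 call, and fits of only the groups compared lost 1. A log2 value of 0 stood for 42 to 86 reads, and the lowest member count was 627 reads, so depth limited these genes little. The absence of an untreated group at 2, 4 or 8 h, and the choice of scaling, limit every difference from control.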
